A study of Mus musculus with 19 samples.

Results

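The protein components of the cytosolic ribosome were examined in mouse angiosarcomas and in normal aorta and skeletal muscle. The genes were taken by symbol, as all Rpl and Rps genes with a plain number (with or without a final a or x) and Rplp0 to Rplp2. Of the 22180 genes that the array measured with a probe set of 1 symbol, 56 met this rule. They comprised 21 genes of the small subunit, 32 of the large subunit and 3 of the acidic stalk. The rule could match 75 canonical symbols, and 19 of these had no probe set of their own, so the large families are described here from 56 genes and not in full. Expression was measured on 19 arrays, 1 for each sample, of total RNA from mice of mixed C57Bl/6 and 129X1/SvJ background. The groups were 7 tumors from animals of genotype aP2-Cre/+;DicerFlox/-, 4 wild type aortas, 4 wild type quadriceps femoris muscles and 4 wild type sternocleidomastoid muscles. In the tumor-bearing animals the aP2 (Fabp4) promoter drives Cre recombinase, and the Dicer gene, whose product cuts microRNA precursors, is floxed on one chromosome and disrupted on the other. Each tumor comparison therefore differs in genotype as well as in tissue, which cannot be told apart here, and the labels gave no age, sex or animal identity. The p-values therefore measure only the spread between these samples, which may be technical.

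Each cytosolic ribosome is built from a small subunit, which reads the messenger RNA, and a large subunit, which joins the amino acids. Their proteins are made in matched amounts, and their mRNAs carry a terminal oligopyrimidine (TOP) start, a run of C and T letters at the first transcribed bases through which mTORC1 controls translation. In growing cells Myc raises the genes for ribosomal RNA synthesis and ribosome assembly, and some tissues use paralogs in place of a standard protein, such as Rpl3l in striated muscle.

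The start sites of the genes are shown because the letters around them, where a TOP run would lie, are a feature that the choice by symbol did not use. RefSeq start windows (build GRCm38.p6) were found for 43 of the 56 genes. The windows below run from 30 bases before to 30 bases after the most upstream annotated start, 5′ to 3′ on the gene's strand, with the longest unbroken run of C and T letters in capitals. The capitals mark that run wherever it lies: it holds the annotated start base in Rps6, Rpl35 and Rps9, lies wholly before it in Rpl13, Rpl34 and Rps28, and wholly after it in Rps12. Rps6 lies at chr4:86857338-86857397 on the minus strand, Rpl35 at chr2:39005102-39005161 (minus), Rps12 at chr10:23787180-23787239 (minus), Rps9 at chr7:3704011-3704070 (plus), Rpl13 at chr8:123102320-123102379 (plus), Rpl34 at chr3:130730369-130730428 (minus), and Rps28 at chr17:33824533-33824592 (minus).
Rps6: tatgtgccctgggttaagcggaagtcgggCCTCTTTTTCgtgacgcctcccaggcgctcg
Rpl35: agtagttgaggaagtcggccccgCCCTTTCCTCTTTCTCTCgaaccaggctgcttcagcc
Rps12: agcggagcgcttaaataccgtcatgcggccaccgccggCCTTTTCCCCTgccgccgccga
Rps9: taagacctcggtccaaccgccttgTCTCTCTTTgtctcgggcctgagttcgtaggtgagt
Rpl13: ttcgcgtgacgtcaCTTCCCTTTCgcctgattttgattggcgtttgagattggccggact
Rpl34: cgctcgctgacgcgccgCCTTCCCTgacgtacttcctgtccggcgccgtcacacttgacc
Rps28: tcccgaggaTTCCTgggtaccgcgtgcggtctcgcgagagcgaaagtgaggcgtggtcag

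A run of at least 8 C and T letters lay in the window of 25 of the 43 genes (58.1%), against 22% of all 17492 protein-coding genes with an entry. The median of the longest run was 9 letters among the ribosomal protein genes and 5 letters among all genes. Within 250 bases before and 50 bases after the start, CCGGAAG (read on both strands) was found in 18 of the 43 genes (41.9%) and in 11.9% of all genes. The letters TATAAA were in 9.3% of the ribosomal protein genes and 13.3% of all genes, and CACGTG, the letters of the Myc E-box, in 6.98% and 7.91%. The long C and T run was present in 14 of 22 genes called higher in tumor than aorta (63.6%) and in 11 of the 21 others (52.4%). A run of at least 8 letters that held the start base itself, a count added after the values were seen, was found in 14 of the 43 genes (32.6%) and in 3.48% of all genes. It was in 11 of the 22 genes called higher in tumor than aorta (50%) and in 3 of the 21 others (14.3%), which is given as a description with no test.

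Values are the deposited log2 intensities. The number of arrays limits the precision, and array medians over all genes lay between 5.83 and 5.94. Probe sets differ in brightness for reasons other than transcript abundance, so no gene's level is set against another's. The 56 genes had means over the 19 arrays from 5.09 to 12.65, with 32 at 8 or above and 24 below. For 10 genes every group mean lay below 5.886, the median of all values, where array signal is close to background. The tumors carried endothelial markers (8 of 8 higher than in aorta, with a mean level per array of 10.18 to 11.12 in tumors and 8.44 to 8.67 in aortas) and the muscles carried skeletal muscle fibre markers (11.70 to 12.38). All 4 aortas also carried heart muscle markers (10.30 to 11.04, against 5.31 to 5.80 in tumors and 5.54 to 5.72 in muscles) and adipocyte markers (10.77 to 11.34, against 4.50 to 9.37 in tumors). Against aorta, macrophage markers were 5 of 5 higher (8.37 to 9.74 in tumors and 6.73 to 7.13 in aortas), neutrophil markers 4 of 4 and proliferation markers 4 of 4 higher, smooth muscle markers 5 of 6 lower (8.52 to 10.03 in tumors and 10.29 to 10.80 in aortas) and T and B lymphocyte markers 5 of 5 lower (4.62 to 5.71 in tumors and 5.19 to 7.10 in aortas). Skeletal muscle fibre markers ranged from 5.47 to 10.49 in tumors and from 5.96 to 8.38 in aortas. The part of these other cell types in the results was not tested, and in such tissue RNA fewer cells of a type and less RNA per cell cannot be told apart.

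The comparison of tumor and aorta asked how the ribosomal protein genes of an angiosarcoma stood against a normal vessel. Of the 56 genes, 29 were higher in tumors, 1 was lower (Rps16) and 26 did not pass the threshold (limma, Benjamini-Hochberg adjusted p under 0.05 over all genes). Of all genes tested, 18.6% were called higher and 17.5% lower. The differences were small. Their median was 0.28 log2 units, against -0.022 over all genes, and they ran from -0.55 for Rps16 to 0.90 for Rps28. The 7 tumors lay wholly above the 4 aortas for 20 of the genes and wholly below them for 0, where 12.2% and 11.5% of all genes did so. At least 1.5-fold differences were called higher for 7 genes and lower for 0, where 11.2% and 10.6% of all genes were. Small subunit genes had 11 calls higher of 21 with a median of 0.30, large subunit genes 16 of 32 with a median of 0.25, and stalk genes 2 of 3. Arrays were also centred on the median gene, on 11 classical housekeeping genes or on 9 ubiquitous genes taken as even (the even list). The median became 0.29, 0.24 and 0.48, and the all-gene median moved by the same step, to -0.01, -0.07 and 0.17. Neither list was level here: 4 housekeeping genes were called higher in tumors and 2 lower, and 1 and 5 of the even list. Relative to all genes the ribosomal protein genes stood 0.31 log2 units higher in tumors under each of these centrings. That gap is fixed by construction, since centring shifts every gene on an array alike. It was 0.35 with quantile normalization and 0.26 without dim genes, settings that can move it. Centring on the mean of the ribosomal protein genes themselves, a setting added after the data were seen, sets their average difference to 0 and shows only how they differ from each other, with 10 higher and 7 lower than that mean.

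**Figure D1:**
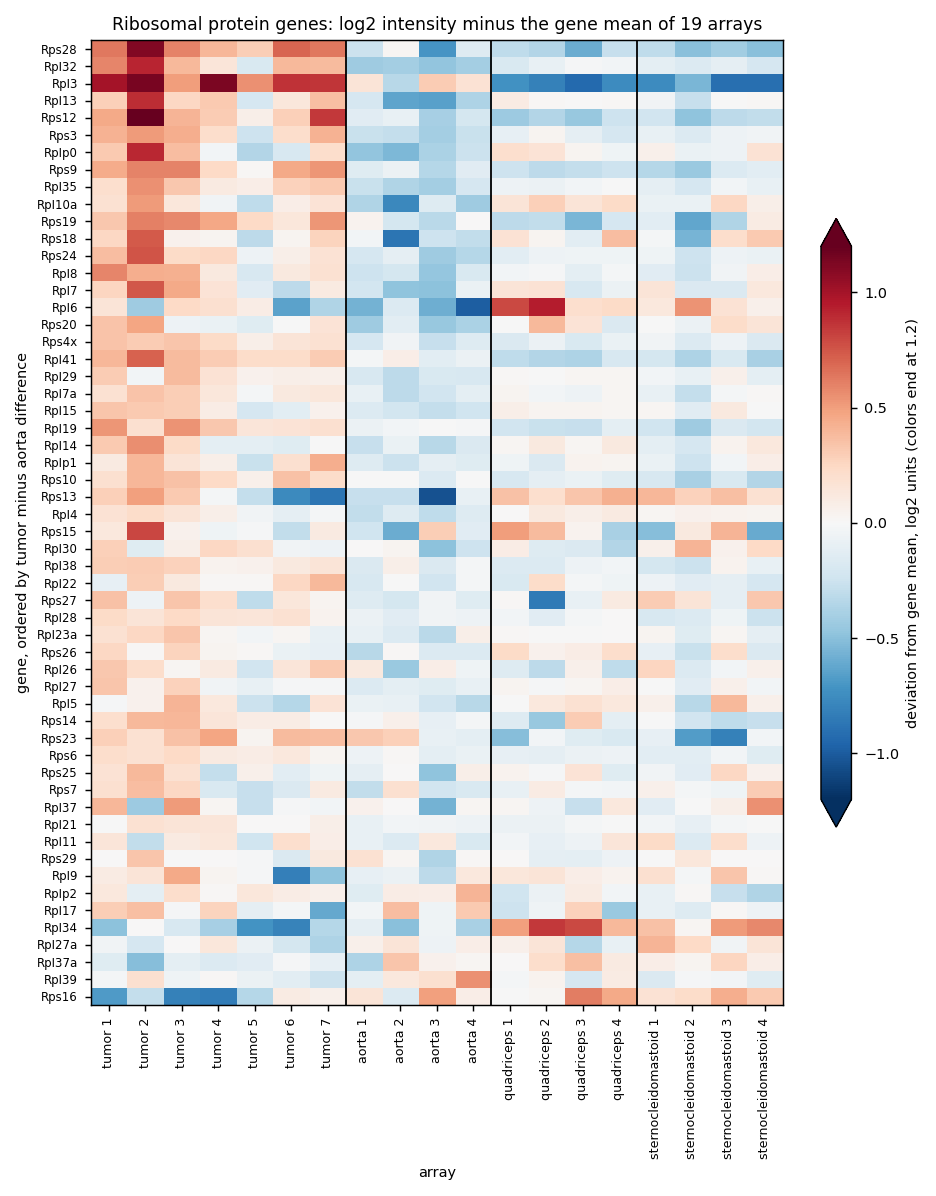
Log2 intensity of each of the 56 ribosomal protein genes (rows) on each of the 19 arrays (columns, tumors at left), as the deviation from the gene's mean over all arrays. Rows run from the largest to the smallest tumor minus aorta difference (Rps28, 0.90, at top and Rps16, -0.55, at bottom), with tumor 2 the reddest column. Rpl3 is lower and Rpl34 higher in the muscles than in tumors and aortas.

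Brightness went with the calls. Among the 32 genes with a mean of at least 8, 26 were higher in tumor than aorta and 0 lower, with a median of 0.38, where 31.4% of all genes that bright were called higher and 31.8% lower. Among the 24 dimmer genes 3 were higher and 1 lower, with a median of 0.19, where 16% of all genes that dim were called higher and 14.6% lower, so the share of dimmer members called higher did not exceed that of all such genes. The mean over all 56 genes was 8.76, 8.86, 8.77, 8.63, 8.46, 8.55 and 8.64 in tumors 1 to 7, against 8.39, 8.38, 8.30 and 8.41 in aortas. No tumor overlapped an aorta, but tumor 5 lay only just above aorta 4. In the muscles that mean was 8.50, 8.51, 8.50 and 8.50 in quadriceps and 8.49, 8.38, 8.52 and 8.50 in sternocleidomastoid, so tumor 5 lay within the muscle range.

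**Figure D2:**
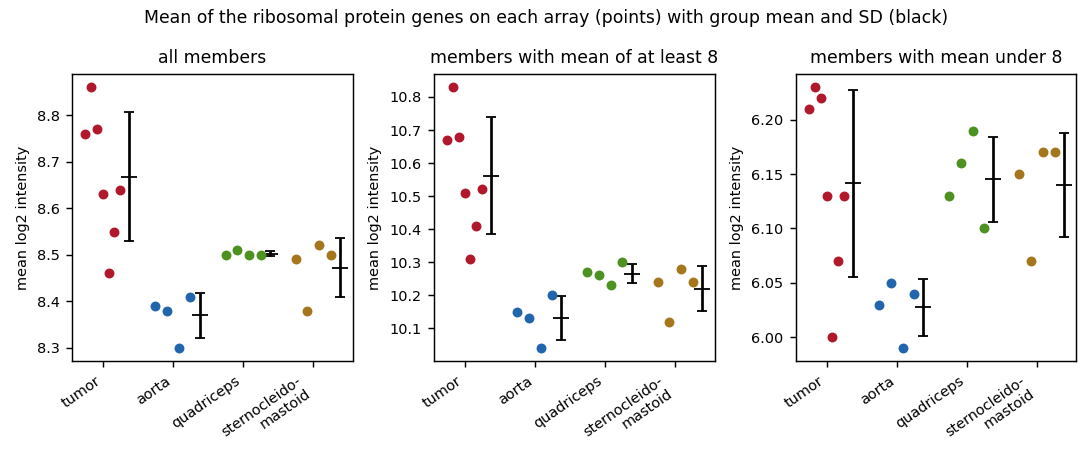
Mean log2 intensity (vertical axis) of all 56 ribosomal protein genes, of the 32 bright ones and of the 24 dim ones on each array, grouped by tissue with tumors at left; black marks show the group mean and SD. For all genes the 7 tumors (8.46 to 8.86) lie above the 4 aortas (8.30 to 8.41), while among dim genes tumors (6.00 to 6.23) and aortas (5.99 to 6.05) overlap.

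Among small subunit genes, Rps28, a small protein near the path of the messenger RNA, had the largest difference from aorta. It read 10.52, 10.48, 10.28, 10.18, 10.58 and 10.52 in tumors 1 and 3 to 7 and was highest in tumor 2 (tumor mean 10.51 ± 0.26, SD, n = 7), against 9.63, 9.91, 9.18 and 9.73 in aortas. All tumors lay above all aortas, and the difference was 0.90 ± 0.14 (SE), 1.86-fold (limma adjusted p = 3.99e-05). Rps12, a protein of the head of the subunit, read 9.29, 9.63 and 10.49 (lowest, median and highest) in tumors, against 9.09, 9.13, 8.82 and 9.01 in aortas. The groups did not overlap, tumor 2 was the highest array, and the difference was 0.73 ± 0.16 (limma adjusted p = 0.00133).

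Rps6, the ribosomal protein phosphorylated by the S6 kinases downstream of mTORC1, moved little but evenly. It read 12.68, 12.77 and 12.89 in tumors, against 12.59, 12.66, 12.53 and 12.57 in aortas. The groups were next to each other without overlap, and the difference was 0.20 ± 0.06 (limma adjusted p = 0.0143). Relative to the mean of the ribosomal protein genes, its difference was -0.09. Rps27, a zinc finger protein, had 6.27 ± 0.23 (SD, n = 7) in tumors and 6.04 ± 0.07 (n = 4) in aortas, with a limma adjusted p of 0.266. Rps16, a protein of the head of the subunit, was the only member called lower and is named after its values were seen. It read 4.70, 5.20 and 5.64 in tumors, against 5.70, 5.38, 6.04 and 5.62 in aortas. Those groups overlapped, every tumor lay below the median of all values, and the difference was -0.55 ± 0.18 (limma adjusted p = 0.0261). No member was called lower when tumor 1, tumor 3, tumor 4 or aorta 3 was left out, and 2 were without tumor 2 or aorta 1.

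Among large subunit genes, Rpl32, which binds ribosomal RNA at the surface of the subunit, read 10.14, 10.71 and 11.24 in tumors, against 9.90, 9.92, 9.85 and 9.92 in aortas. The aortas lay within a narrow band below every tumor, and the difference was 0.80 ± 0.14, 1.74-fold (limma adjusted p = 9.96e-05). Rpl3, which reaches to the centre where peptide bonds are made, read 9.27, 9.63 and 9.90 in tumors, against 8.92, 8.43, 9.07 and 8.94 in aortas. All tumors were above all aortas, by 0.79 ± 0.14 (limma adjusted p = 0.00013). Rpl13 read 8.81, 9.30 and 9.90 in tumors, against 8.81, 8.38, 8.36 and 8.64 in aortas. Tumor 5 stood above aorta 1 by less than the decimals shown, and the difference was 0.76 ± 0.14 (limma adjusted p = 0.000299). Rpl35, near the exit of the nascent chain and named for its C and T run, read 11.56, 11.76 and 12.03 in tumors, against 11.22, 11.12, 11.08 and 11.28 in aortas. Its groups did not overlap, and its difference of 0.57 ± 0.08 had the smallest adjusted p of the 56 genes (limma, 1.75e-05).

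The other genes called higher were Rps3, Rps24, Rps18, Rps20, Rps4x and Rps10 of the small subunit and Rpl10a, Rpl8, Rpl7, Rpl29, Rpl7a, Rpl15, Rpl19, Rpl14, Rpl4, Rpl38, Rpl28 and Rpl41 of the large subunit, besides Rps19 and Rps9. They differed by 0.24 (Rpl28) to 0.59 (Rps3) log2 units. Of the genes that did not pass, Rpl6 had the largest difference (0.47 ± 0.20, limma adjusted p = 0.0718) and Rpl9 one of 0.00 ± 0.17.

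Rpl22, an RNA-binding protein that is dispensable for the ribosome itself, had 6.15 ± 0.18 (SD) in tumors and 5.90 ± 0.12 in aortas, just outside the threshold (limma adjusted p = 0.0506). Rpl39, at the exit tunnel of the nascent chain, had 6.79 ± 0.14 in tumors and 7.02 ± 0.27 in aortas, with overlapping groups (limma adjusted p = 0.0954). In the acidic stalk, which recruits the elongation factors, Rplp0 read 8.98, 9.54 and 10.23 in tumors, against 8.86, 8.79, 8.95 and 9.07 in aortas. Tumor 5 fell below aorta 4 there, and the difference was 0.59 ± 0.16 (limma adjusted p = 0.00786). Its partner Rplp1 was higher by 0.32 ± 0.11 (limma adjusted p = 0.0244), a call lost without aorta 2, and Rplp2, on a dim probe set, differed by -0.03 ± 0.10 (limma adjusted p = 0.841).

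**Figure D3:**
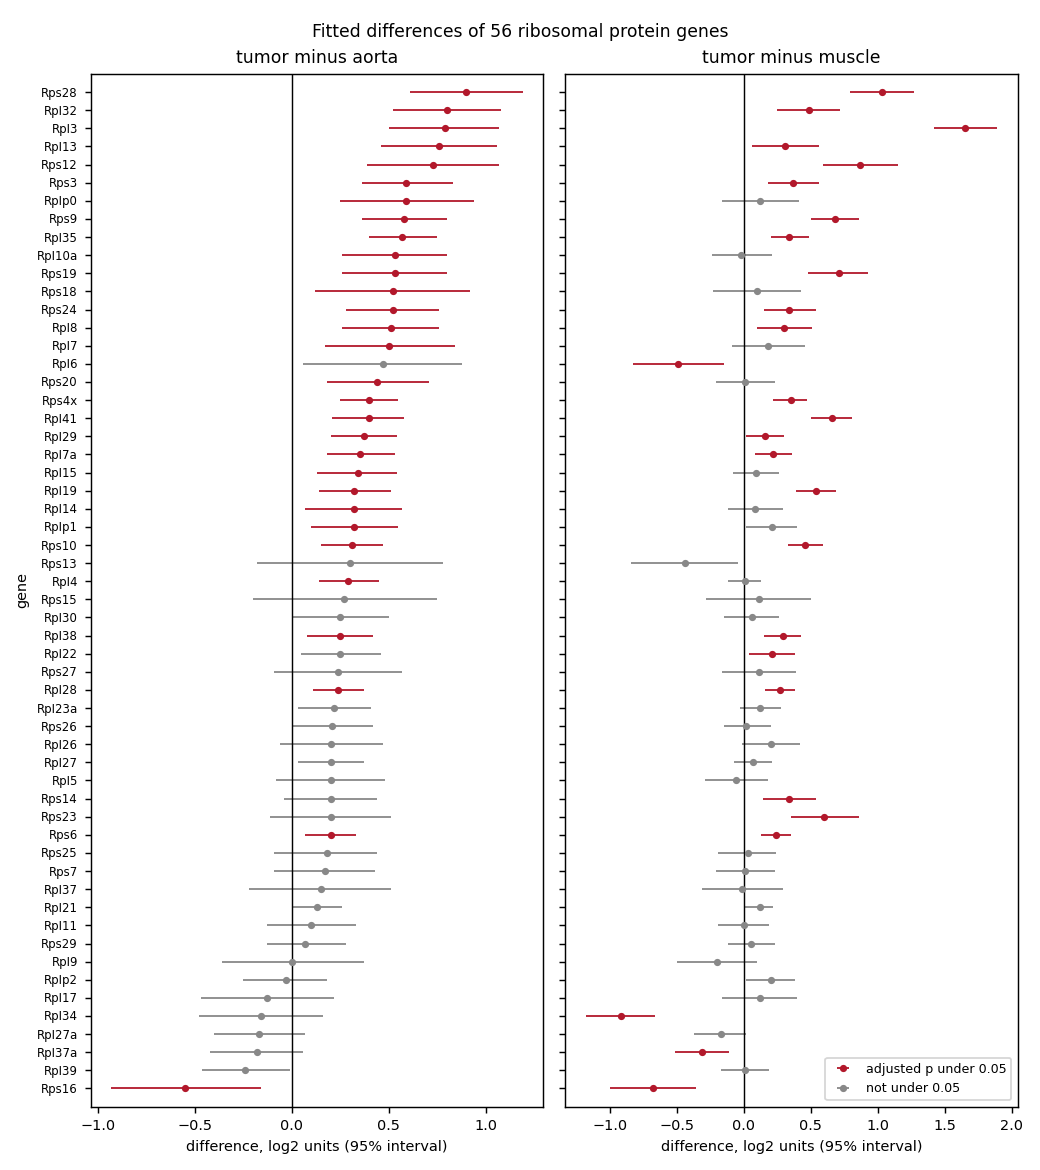
Fitted difference in log2 units (horizontal axis, point) with its 95% interval (bar) for each of the 56 ribosomal protein genes, tumor minus aorta at left and tumor minus muscle at right, red where the adjusted p was under 0.05. Against aorta 29 red points lie above 0 and 1 below, and against muscle 23 lie above and 4 below, with Rpl3 (1.65) and Rpl34 (-0.92) at the ends.

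The comparison of tumor and muscle used the quadriceps and sternocleidomastoid samples together. Here 23 of the 56 genes were higher in tumors, 4 were lower and 29 did not pass the threshold, where 25.3% of all genes were called higher and 25.7% lower. The share higher, though above that of all genes, came with a median of only 0.12 log2 units (-0.038 over all genes). Of the 11 classical housekeeping genes 6 were themselves called higher in tumors and 4 lower, and of the 9 genes of the even list 0 and 7. Centring on the classical housekeeping list gave a median of -0.11, with 10 genes higher and 11 lower. Centring on the even list gave 0.41, with 44 higher and 1 lower. Those centrings moved the all-gene median to -0.27 and 0.25. The shares of all genes called under them are not given here, so these counts are not read as a result about the ribosomal protein genes. Relative to all genes the median stood 0.16 higher in tumors under both and as deposited, a gap that centring cannot change. It was 0.30 with quantile normalization and 0.12 without dim genes. At least 1.5-fold differences were called higher for 7 genes and lower for 2, where 16.5% and 13.2% of all genes were. Of the 32 genes with a mean of at least 8, 19 were higher and 0 lower, where 37.3% and 42.3% of genes that bright were called. Tumors lay wholly above the 8 muscles for 15 genes and wholly below for 2, where 14.6% and 12.7% of all genes did so.

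**Figure D4:**
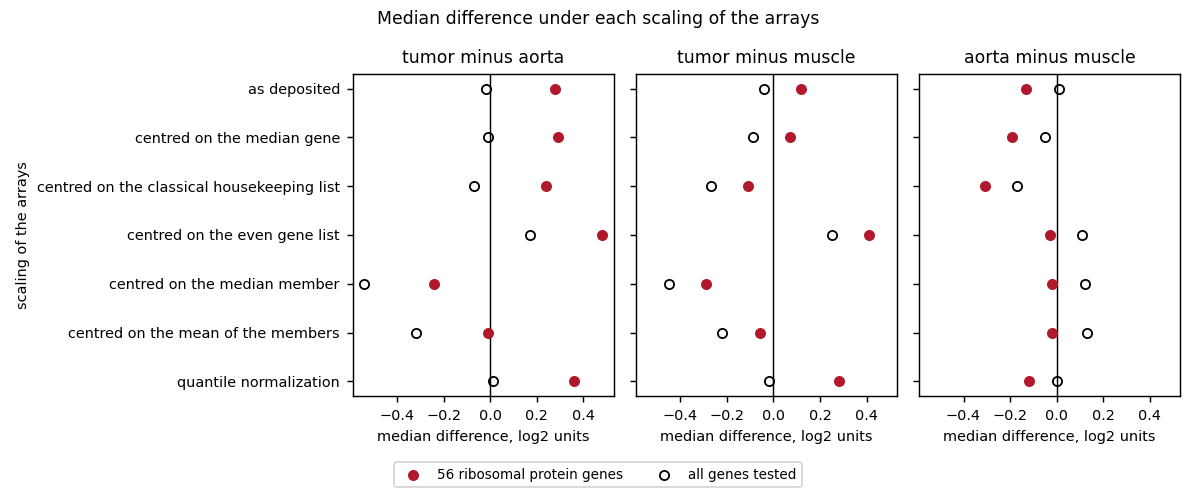
Median tumor minus aorta, tumor minus muscle and aorta minus muscle difference (horizontal axis, log2 units) of the 56 ribosomal protein genes (red) and of all genes tested (open) under each scaling of the arrays (rows). Under each centring both points move together by construction, so the ribosomal protein genes stay 0.31 above all genes against aorta and 0.16 above against muscle. Quantile normalization, which can change this gap, puts it at 0.35 and 0.30. Centring on the ribosomal protein genes themselves (median member, mean of the members) sets their balance by construction.

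Rpl3 stood apart in this comparison. It read 9.27, 9.63 and 9.90 in tumors, against 7.83, 7.98 and 8.22 in muscles. The lowest tumor lay far above the highest muscle, and the difference was 1.65 ± 0.11, 3.15-fold (limma adjusted p = 2.84e-10). A second Rpl3 probe set differed by 1.55 ± 0.13, and a dim one with a mean of 4.20 by 0.24 ± 0.12. Rps28 read 9.29, 9.50 and 9.61 in muscles, below every tumor, and differed by 1.03 ± 0.11 (limma adjusted p = 2.57e-07). Rps12 differed by 0.87 ± 0.13. Rps19, which is mutated in Diamond-Blackfan anemia, read 9.06, 9.39 and 9.53 in tumors, against 8.30, 8.62 and 9.03 in muscles, a difference of 0.71 ± 0.11. Rps9, at the entry of the messenger RNA, read 8.58, 9.02 and 9.16 in tumors, against 8.12, 8.30 and 8.44 in muscles, a difference of 0.68 ± 0.09. For each of these 3 genes the tumors did not overlap the muscles, and limma adjusted p ran from 1.46e-06 to 1.57e-05.

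Rpl34 was the member most reduced in tumors against muscle. It read 6.64, 7.05 and 7.45 in tumors, against 7.47, 7.95 and 8.29 in muscles. All tumors lay below all muscles, by a narrow gap, and the difference was -0.92 ± 0.12 (limma adjusted p = 3.48e-06). Rpl37a, a zinc finger protein of the large subunit, read 5.92, 6.29 and 6.41 in tumors, against 6.43, 6.52 and 6.79 in muscles. The groups touched without overlap, and the difference was -0.31 ± 0.09 (limma adjusted p = 0.00988). The Rpl37a call was lost with tumors 5 to 7 alone, with sternocleidomastoid alone as the muscle and with centring on the even list. Rps16 (-0.68 ± 0.15) and Rpl6 (-0.49 ± 0.16), named after their values were seen, were called lower with overlapping groups. Rps6 was higher by 0.24 ± 0.05 (limma adjusted p = 0.000543) and Rpl22 by 0.21 ± 0.08 (limma adjusted p = 0.0406), but the Rpl22 call was lost without tumor 2, 3, 6 or 7 and without 6 of the 8 muscles (all but quadriceps 2 and sternocleidomastoid 1), and its difference was -0.02 with the classical housekeeping list. Rps27, Rpl39, Rplp0, Rplp1 and Rplp2 did not pass, with differences of 0.11, 0.01, 0.12, 0.21 and 0.20.

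The comparisons with aorta and with muscle share the 7 tumors, so their calls are not independent. The shares of all genes called in both comparisons, in either alone or in neither are not given here. The counts that follow are therefore not read as a result about the ribosomal protein genes. Past the threshold, 20 genes were higher in both comparisons, among them Rps28, Rps12, Rps19, Rps9, Rps6, Rpl3, Rpl32 and Rpl13. Rpl29, Rpl41 and Rps24 are among the 20 by their brightest probe set, and each had another probe set called lower against muscle. A further 9 passed against aorta and not against muscle. The gap between both differences is the aorta minus muscle difference, which passed for Rpl10a, Rpl4, Rplp0 and Rps20 of these 9 and not for Rpl14, Rpl15, Rpl7, Rplp1 and Rps18. Rpl22, Rps14 and Rps23, named after their values were seen, passed against muscle and not against aorta, and that gap passed for Rps23 alone of these 3 (0.41 ± 0.14, limma adjusted p = 0.0365). In neither comparison did 20 genes pass: Rpl5, Rpl9, Rpl11, Rpl17, Rpl21, Rpl23a, Rpl26, Rpl27, Rpl27a, Rpl30, Rpl37, Rpl39, Rplp2, Rps7, Rps13, Rps15, Rps25, Rps26, Rps27 and Rps29.

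In aorta against muscle, 3 of the 56 genes were higher and 10 lower, where 17% of all genes were called higher and 15.3% lower, and the median was -0.13 (0.012 over all genes). The aortas lay wholly above the muscles for 3 genes and wholly below for 10, where 14.6% and 12.6% of all genes did so. At least 1.5-fold differences were called higher for 1 gene and lower for 3, where 10.2% and 8.17% of all genes were. Rpl3 was higher in aorta by 0.87 ± 0.13 (limma adjusted p = 3.76e-05), with values of 8.92, 8.43, 9.07 and 8.94 in aortas above all 8 muscles. Rpl41, the smallest ribosomal protein, read 12.24, 12.34, 12.14 and 12.19 in aortas, against 11.87, 11.94 and 12.08 in muscles, and was higher by 0.26 ± 0.09 (limma adjusted p = 0.0253), without overlap. Rpl6 (-0.96 ± 0.19, from aorta signals below the median of all values), Rpl34 (-0.76 ± 0.15), Rps13 (-0.74 ± 0.22), Rpl10a (-0.55 ± 0.13) and Rplp0 (-0.47 ± 0.16) were lower in aorta, with limma adjusted p from 0.000449 to 0.0309 and no overlap. Rpl6 read 5.35, 5.76, 5.33 and 4.93 in aortas, against 5.98, 6.14 and 6.86 in muscles. Rps13 read 8.29, 8.29, 7.52 and 8.48 in aortas, against 8.75, 8.91 and 8.99 in muscles, and in tumors it spread over 7.69 to 9.06, so that the groups of the tumor comparisons overlapped. The count of lower genes was 5 without aorta 3 and 6 without aorta 2, and that of higher genes was 1 without aorta 2. The Rpl41 call was lost without aorta 1 or aorta 2, that of Rps13 without aorta 3, and that of Rplp0 without aorta 1, 2 or 3, quadriceps 1 or sternocleidomastoid 4. Of the 11 classical housekeeping genes 5 were themselves called higher in aorta and 2 lower, and of the 9 genes of the even list 1 and 3. Centring on the classical housekeeping list gave 1 higher and 29 lower, and centring on the even list 6 higher and 4 lower with a median of -0.03. The shares of all genes called under these centrings are not given here, so the counts are not read as a result about the ribosomal protein genes. Relative to all genes the median stood at -0.14 under both and as deposited, a gap that centring cannot change. It was -0.12 with quantile normalization and -0.2 without dim genes.

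Between the sternocleidomastoid and quadriceps muscles 0 of the 56 genes were called in either direction by limma, where 0.234% of all genes were called higher and 0.198% lower. At an unadjusted limma p under 0.05, 1 was higher and 0 lower, and the share of all genes at that cut was not counted. No gene had groups that lay wholly apart, where 4% of all genes did so upwards and 3.6% downwards. The median difference was -0.04 and single differences ran from -0.32 to 0.37. Rps6 was near level in both, at 12.54 ± 0.05 in sternocleidomastoid and 12.56 ± 0.03 in quadriceps (SD, n = 4 each).

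The muscle paralogs of the standard proteins showed the largest contrasts of the translation apparatus. Rpl3l, which takes the place of Rpl3 in striated muscle ribosomes, read 5.07, 5.96 and 6.34 in tumors and 5.70, 5.76, 6.05 and 5.81 in aortas, against 10.60, 10.85 and 10.94 in muscles. Tumors and aortas sat far below every muscle, with means of 5.68 and 5.83 that lay below the median of all values. Signal there is close to background, so the size of the difference is limited by the array and may be understated. The fitted tumor minus muscle difference was -5.15 ± 0.17 (limma adjusted p = 1.89e-14). The aorta minus muscle difference was -5.00 ± 0.20. Rpl3 was lowest and Rpl3l highest in muscle, each on its own probe set. The pair of elongation factors ran alike: Eef1a1, the general form, was higher in tumors than muscle by 1.35 ± 0.09, and Eef1a2, the form of muscle and neurons, was lower by 4.38 log2 units (-4.38 ± 0.31). Eef1a2 ranged from 5.95 to 8.72 in tumors and from 7.95 to 8.16 in aortas. The tumors with the lowest values (5, 6 and 3) were those with the lowest skeletal muscle fibre means (5.47, 5.74 and 7.26). In aortas, which also carried heart muscle markers, the fibre means ran from 5.96 to 8.38 while Eef1a2 stayed within its narrow range. The part of muscle tissue in the tumors was not tested.

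The 250 bases before the most upstream RefSeq start of Rpl3l (GRCm38.p6, chr17:24727576-24727825, plus strand) are shown with E-boxes, CANNTG on this strand, in capitals, because such letters are the recognition motif of the muscle factors of the MyoD family. The stretch holds 3 E-boxes, and 9.95% of all 17492 promoter stretches of this length hold at least 3. The same stretch of Eef1a2 (chr2:181157016-181157265, minus strand) holds 0.
Rpl3l: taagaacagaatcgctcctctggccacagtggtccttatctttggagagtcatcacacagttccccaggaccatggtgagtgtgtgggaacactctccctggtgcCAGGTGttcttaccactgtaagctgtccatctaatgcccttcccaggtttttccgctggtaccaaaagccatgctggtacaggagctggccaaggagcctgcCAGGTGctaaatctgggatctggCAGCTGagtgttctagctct

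**Figure D5:**
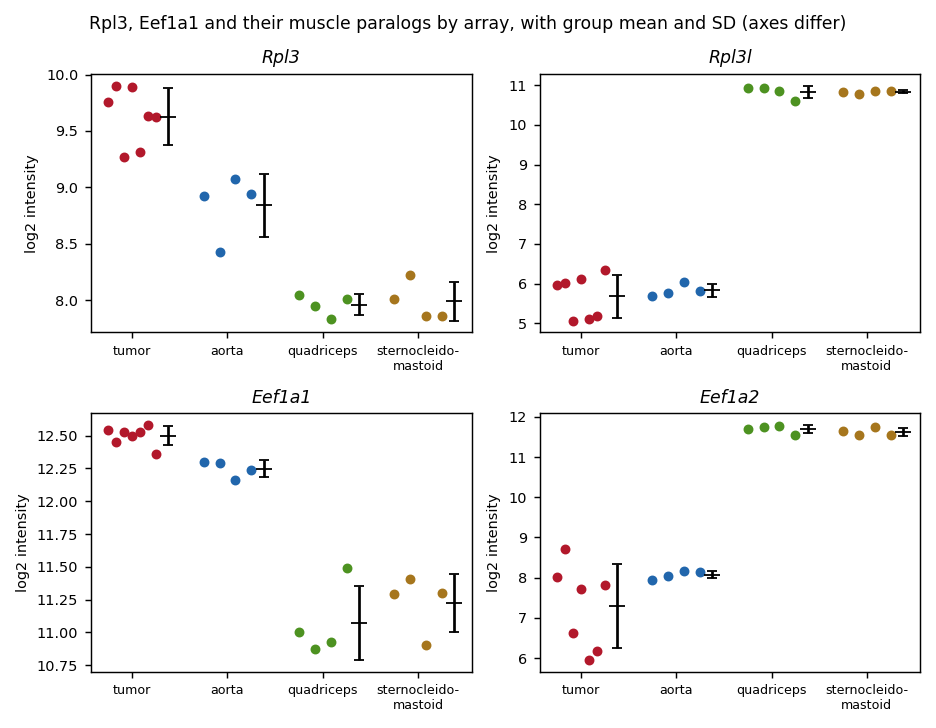
Log2 intensity (vertical axis, scaled per panel) of Rpl3, Rpl3l, Eef1a1 and Eef1a2 on each array, by tissue with tumors at left; black marks give the group mean and SD. In muscle Rpl3 (7.83 to 8.22) is lowest and Rpl3l (10.60 to 10.94) highest, while Eef1a1 (10.87 to 11.49) is lowest and Eef1a2 (11.55 to 11.78) highest there too.

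The remaining paralogs moved less. Rps27l, a paralog of Rps27 that p53 induces in human cells, was lower in tumors than aorta by 0.46 log2 units (-0.46 ± 0.10, limma adjusted p = 0.000887) and lower than muscle (-0.61 ± 0.08), with no overlap in either. Of the 3 other ribosomal subunit genes outside the symbol rule, Rps3a1 (0.64 ± 0.14) and Fau (0.35 ± 0.08) were higher in tumors than aorta, and Rpsa (0.24 ± 0.13, limma adjusted p = 0.167) did not pass. Against muscle all 3 were called higher (0.31, 0.43 and 0.26). The Rpsa call (limma adjusted p = 0.048) was lost without any 1 of the 8 muscles and without tumor 1, 2, 6 or 7, and the Rps3a1 call (limma adjusted p = 0.0267) without tumor 1, 2 or 3, quadriceps 3 or sternocleidomastoid 1. Rpl22l1, Rpl39l and Rpl7l1 differed from aorta by 0.07, 0.17 and -0.24, and none passed. Against muscle Rpl22l1 was called higher in tumors (0.21, limma adjusted p = 0.0185), a call lost with tumors 1 to 4 alone, and Rpl39l and Rpl7l1 did not pass. Rps4l differed by -0.16 from aorta, and was higher in tumors than muscle by 0.37 ± 0.12 (limma adjusted p = 0.0159) with overlapping groups. It was also higher in aorta than muscle, by 0.53 (limma adjusted p = 0.00758). Rpl10l, a testis form, lay at 2.49 to 2.81 in tumors and 2.61 to 2.74 in aortas, close to the floor of the arrays. At that level it was called lower than muscle in tumors (-0.24, limma adjusted p = 0.036) and in aorta (-0.31, limma adjusted p = 0.0377).

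The genes that build and use the ribosome were counted from lists, on the values as deposited and under no other scaling. The shares of all genes called were 18.6% higher and 17.5% lower against aorta, and 25.3% and 25.7% against muscle. In tumor against aorta, 26 of 64 ribosome biogenesis genes were higher and 6 lower (median 0.28), with Mybbp1a, a nucleolar regulator, at 1.03 ± 0.20 and Nop58, a core box C/D snoRNP protein, at 0.96 ± 0.16. Of 16 non-ribosomal TOP mRNAs 11 were higher and 0 lower, led by the histone chaperone Nap1l1 (0.91 ± 0.09) and nucleophosmin, Npm1 (0.83 ± 0.21). The lists share genes: Npm1 is also counted among the biogenesis genes, and several other TOP mRNAs are counted in another list. The counts of these lists are therefore not independent agreement. Of 31 initiation factors 14 were higher and 6 lower. For the RNA polymerase I machinery 3 of 15 genes were higher and 2 lower, near the shares of all genes. Of 12 elongation and release factors 5 were higher and 0 lower, and of 18 Myc and mTORC1 regulators 3 were higher and 8 lower. Among these Deptor, an inhibitor of mTOR, was lower (-1.36 ± 0.24), and Myc itself was higher by 2.04 ± 0.31 (limma adjusted p = 3.21e-05). Genes for the proteins of the separate mitochondrial ribosome had 0 of 71 higher and 68 lower and a median of -0.98. Against muscle 15 were higher, near the share of all genes, and 23 lower of the biogenesis genes, 8 and 17 of the initiation factors, 4 and 5 of the elongation factors, 7 and 7 of the TOP mRNAs, 4 and 4 of the polymerase I genes, 4 and 9 of the regulators, and 0 and 69 of the 71 mitochondrial genes.

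Tumors differed among themselves. Tumor 2 had the highest value of the 7 for 29 of the 56 genes and tumor 5 the lowest for 24. Tumors 1 to 4, whose sample codes are numbered apart from those of tumors 5 to 7, gave 34 genes higher and 1 lower against aorta, with a median of 0.35. Tumors 5 to 7 alone gave 15 higher and 0 lower, with a median of 0.17. The all-gene medians in these fits were -0.04 and -0.01. The subsets hold unequal numbers of tumors and the shares of all genes called are not given, so the counts are not compared. Against muscle the medians of these subsets were 0.23 and 0.00, where those of all genes were -0.05 and -0.02. The labels do not say what the codes mark. Biogenesis genes averaged 7.64 to 7.94 in tumors 1 to 4 and 7.40 to 7.45 in tumors 5 to 7, and proliferation markers 8.94 to 9.32 and 7.61 to 8.22. Tumor 2 also carried the highest erythroid marker Slc4a1 (11.41, the next tumor 8.35) and neutrophil mean (8.88, the next 7.08), and their part was not tested. Left without it, the comparison with aorta had a median of 0.25. Median SD over the 56 genes was 0.21 in tumors, 0.14 in aortas, 0.09 in quadriceps and 0.13 in sternocleidomastoid, where all genes had 0.21, 0.16, 0.14 and 0.16. Rps13 was the most variable in tumors (0.54) and Rpl28 the least (0.07).

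Of the 56 genes, 23 had several probe sets, and 20 of these had the same sign on all of them against aorta, 18 against muscle. Against aorta 48 of the 95 probe sets were called higher and 1 lower, and no gene had opposite calls. Several probe sets of Rps12, Rps19 and Rpl23a gave identical fits. These counts, and those of genes with the same sign, therefore include copies and are not independent agreement. The share of all probe sets called was not counted. Against muscle Rpl29, Rpl41 and Rps24 had probe sets called in opposite directions. For Rpl41 the 4 bright ones were higher by 0.56 to 0.66, and a dim one of mean 5.80 was lower (-0.66). For Rps24 and Rpl29 the conflicting probe set was not dim. Rps24 was higher by 0.34 on the probe set used (mean 8.19) and lower on one of mean 8.12 (-0.35, limma adjusted p = 0.0186). Rpl29 was higher by 0.16 on the probe set used (mean 11.85) and lower on one of mean 8.08 (-0.50, limma adjusted p = 0.000199). In aorta against muscle 13 of the 23 genes had the same sign on all probe sets, and Rpl41 again had opposite calls, with its 4 bright probe sets higher by 0.25 to 0.30 and the dim one lower (-0.73 ± 0.14, limma adjusted p = 0.000372). Ribosomal protein genes have many processed pseudogenes, and signal from near-identical copies was not separated here.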

How the data were processed

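The deposited table holds log2 intensities of 41345 Affymetrix probe sets on 19 arrays, 1 per sample. The scale was read from the values (1.59 to 13.78), since no label states it. Partek 6.6 is named per the submitters' processing notes, with its role and the normalization not given in the sources used here. Of the probe sets 23521 carried 1 symbol, 1814 several and 16010 none, and each of the 22180 genes was read from its brightest single-symbol probe set, by the mean of 19 arrays. No further scaling was applied. No array pair was identical, and within-group correlations over genes were 0.9358 to 0.9942.

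A group-mean model over all arrays (limma 3.58.1, R 4.3.3, lmFit and eBayes, two-sided) was adjusted by Benjamini-Hochberg over all genes at 0.05. Muscle is the mean of both muscle groups. Tables and figures used Python 3.11.15, pandas 2.3.3 and matplotlib 3.10.9.

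The members and lists were chosen with earlier results of these data known. Named genes were the 5 largest increases and decreases per comparison among called members without overlap, a fixed set of members, paralogs and elongation factors, and up to 2 leading genes of each list. Start windows came from RefSeq (GRCm38.p6) by symbol. On simulated arrays of 22180 genes, 4% of changes of 0.25 log2 units, 48% of 0.5 and 94% of 1 were recovered in the tumor and aorta comparison. In the tumor and muscle comparison 10%, 72% and 88% were recovered. Only 50 genes of each size were changed, with independent noise, where far more genes were called in the data. The recovery in the data may therefore differ. Alternatives were rescalings, quantile normalization, omission of dim genes, the mean over probe sets, other variance options, tumor and muscle subsets, stricter calls and leaving out each array.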

Additional observations from a re-analysis of the deposited data

Results flagged for a closer look

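In 5 of 132 groups tested, 1 sample lay far from the others of its group, where chance gives about 1 in 20. Sternocleidomastoid 3 had 12.61 for Rps6 (the others 12.50 to 12.52). Tumor 4 had 2.49 for Rpl10l (the others 2.70 to 2.81). Quadriceps 3 had 8.74 for Rps3a1 (the others 8.99 to 9.0). Tumor 2 had 5.92 for Rpl37a (the others 6.26 to 6.41) and 12.97 for Rpl41 (the others 12.48 to 12.66).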

How the results depend on the processing

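Results are counts of the 56 ribosomal protein genes called higher and lower and their median difference, as deposited 29, 1 and 0.28 for tumor minus aorta, 23, 4 and 0.12 for tumor minus muscle, 3, 10 and -0.13 for aorta minus muscle, and 0, 0 and -0.04 between the muscles. No paired analysis was possible because replicate numbers were given in accession order and pair no samples. The shares of all genes called under the rescalings and sample subsets below are not given here.

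For tumor minus aorta, centring on the classical housekeeping list gave 2 lower, on the even list 0 lower and a median of 0.48, on the median member 1 higher, 16 lower and -0.24, and on the mean of the members, added after seeing the data, 10 higher, 7 lower and -0.01. Centring on the members sets their balance by construction. Quantile normalization gave 2 lower. Without dim genes, with the compared groups only, with an adjusted p of 0.01 or with at least 1.5-fold there were 0 lower, and the fold rule left 7 higher. Tumors 5 to 7 gave 15, 0 and 0.17. The bright members (added after seeing the data) gave 0 lower and 0.38, the dim ones 3 higher and 0.19. Leaving out each array gave 25 to 32 higher, 0 to 2 lower and 0.25 to 0.31.

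For tumor minus muscle, the classical housekeeping list gave 10, 11 and -0.11, the even list 44, 1 and 0.41, the median member 6, 27 and -0.29, the mean of the members 13, 9 and -0.06, and quantile normalization a median of 0.28. Tumors 1 to 4 gave 0.23 and tumors 5 to 7 0.00. At least 1.5-fold left 7 and 2. Bright members gave 0 lower and 0.26, dim ones 4 higher. Leaving out each array gave 21 to 25, 4 to 5 and 0.10 to 0.18.

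For aorta minus muscle, the median gene gave 1 higher, the classical housekeeping list 1, 29 and -0.31, the even list 6, 4 and -0.03, the median member 6 lower and -0.02, the mean of the members 7 higher and -0.02. One variance per group gave 5 higher, quadriceps alone 1, an adjusted p of 0.01 gave 1 and 4, 1.5-fold 1 and 3, dim members 1 and 3. Leaving out each array gave 1 to 4, 5 to 11 and -0.15 to -0.10, and between the muscles 0, 0 and -0.06 to 0.00. There the even list turned the median to 0.03.

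Of the named genes, centring on the median member turned Rps6 (-0.32), Rplp1 (-0.20), Rpl22l1 (-0.45), Rpl10l (-0.45) and Fau (-0.17) against aorta, and Rpl22 (-0.20), Rpl39 (-0.40), Rps6 (-0.17), Rplp0 (-0.29), Rpl22l1 (-0.20), Rps4l (-0.04), Rpsa (-0.15) and Rps3a1 (-0.10) against muscle. The mean of the members turned Rps6 to -0.09 against aorta. The classical housekeeping list turned Rpl22 (-0.02), Rpl39 (-0.22) and Rpl22l1 (-0.02), and the even list Rpl10l (0.05), against muscle. Over all alternatives, the named genes kept direction and call in 579 of their tumor minus aorta values, lost the call in 23 and gained it in 37, against 729, 94 and 20 for tumor minus muscle and 617, 42 and 13 for aorta minus muscle. The turns follow from the size of the scaling step. The precision is limited by array number and, for dim probe sets, by signal near background.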
